A study of Mus musculus with 6 samples.

Results

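The 10 genes described here were Yap1 and Wwtr1, which encode the co-activators YAP and TAZ of the Hippo pathway, Tead1, which encodes a DNA-binding partner of both, Lats2 and Amotl2, which encode inhibitors of YAP, and Ankrd1, Ctgf, Cyr61, Axl and Crim1, which are known as YAP/TEAD target genes. They were chosen by symbol, with earlier results of these data known, and make up 10 of the 31055 features of the matrix. They were measured by single-cell RNA sequencing (10x 3′ chemistry, which counts unique molecular identifiers, UMIs) in neoplastic cells sorted from lung tumors of 6 mice. All 6 mice carried KrasLSL-G12D, Lkb1XTR/XTR and a Rosa26LSL-tdTomato reporter, and tumors were started with a lentivirus carrying Cre in the airways and grown for 20 weeks. XTR is an inverted gene trap with a GFP cassette in an Lkb1 (Stk11) intron, so Cre turns Lkb1 off and GFP on, and FLPo-ERT2 with tamoxifen takes the trap out again. The 3 Restored mice also carried FLPo-ERT2 and received tamoxifen (4 mg) during the last 2 weeks. Of the 3 NonRestored mice, 1 carried FLPo-ERT2 and received corn oil vehicle, and the others lacked it and received tamoxifen or vehicle. The sort removed cells with CD45, CD31, F4/80 or Ter119 and kept tdTomato-positive cells. Both sexes were used, and the mice were young adults when tumors were started.

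The deposited matrix pools the libraries, and nothing in it ties a cell to a mouse. It was therefore treated as 1 sample. Restored and NonRestored mice were not compared, barcodes shared between libraries could not be counted, and every interval below is a 95% interval that covers counting error only and says nothing of the spread between mice. Of 16017 deposited cells, 12183 had at least 500 genes and at most 20% mitochondrial UMIs, with a median of 19348 UMIs. They were sorted into gates by UMIs per 10000. The ATII gate (Sftpc at least 500, Hopx under 2, Krt8 and Krt18 together under 50) held 6975 cells, the ATI gate (Hopx at least 15, the same keratin limit) held 956 and the keratin-high gate (Krt8 and Krt18 together at least 50) held 1183, while 3069 cells fell in no gate. Median UMIs were 21660, 11796.5 and 23490 in that order. Levels are given as CPM: a gene's UMIs in all cells of a gate, divided by the gate's total and multiplied by 1000000. They compare 1 gene across cells, not genes with each other.

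YAP and TAZ (encoded by Wwtr1) are co-activators that bind no DNA themselves and reach their targets through the TEAD factors. The Hippo kinases, LATS1 and LATS2 among them, phosphorylate YAP and TAZ and keep them out of the nucleus, and the angiomotins hold them at junctions. Both Lats2 and Amotl2 are also transcribed under YAP/TEAD, which gives the pathway negative feedback. In the lung, YAP and TAZ are known for their part in the path from alveolar type II (ATII) cells, which make surfactant, to the flat alveolar type I (ATI) cells that exchange gas. Cells with high Krt8 between these types are known from lung injury and from lung tumors. LKB1 is a kinase that acts through AMPK-related kinases, some of which are known to restrain YAP.

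TEAD factors bind the letters GGAATG or their reverse complement CATTCC. The stretches below show where those letters stand in the 300 bases around each annotated start (250 before, 50 after). Of the 10 genes, 8 had such a RefSeq window (GRCm38.p6), and Tead1 and Ctgf had none. All 8 held the letters on 1 strand or the other, against 14.7% of the 32851 windows in the table and 16.6% of its 27025 genes. Each stretch is 30 bases long, reads 5′ to 3′ on the strand of the gene, and has the match in capitals.
Yap1, chr9:8004720-8004749, minus strand: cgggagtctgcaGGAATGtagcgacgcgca
Wwtr1, chr3:57576029-57576058, minus strand: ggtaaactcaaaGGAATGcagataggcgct
Lats2, chr14:57746102-57746131, minus strand: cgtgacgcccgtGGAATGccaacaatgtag
Amotl2, chr9:102717727-102717756, plus strand: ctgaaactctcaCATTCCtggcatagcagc
Ankrd1, chr19:36120037-36120066, minus strand: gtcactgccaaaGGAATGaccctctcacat
Ankrd1, chr19:36119950-36119979, minus strand: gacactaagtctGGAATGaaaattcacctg
Cyr61, chr3:145650071-145650100, minus strand: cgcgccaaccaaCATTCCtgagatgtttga
Axl, chr7:25788949-25788978, minus strand: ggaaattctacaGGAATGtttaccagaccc
Crim1, chr17:78200157-78200186, plus strand: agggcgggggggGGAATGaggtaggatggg
The match began 141 bases before the start in Yap1, 136 and 170 before the 2 starts of Wwtr1, 65 in Amotl2, 210 and 123 in Ankrd1, 103 in Cyr61, 233 in Axl and 79 in Crim1, while in Lats2 it lay just after 1 of 2 starts and the window of the other held none. GENCODE M21 places the Amotl2, Ankrd1 and Lats2 stretches in an exon of the same gene (the Lats2 stretch also in Gm49361) and the others outside any annotated gene. The AP-1 letters TGANTCA and the CArG box of serum response factor were in none of the 8 genes' windows, against 7.81% and 1.63% of all windows. Letters in a window are a description and do not show a bound site. Among the comparison lists, GGAATG was in the windows of 3 of 11 Hippo kinases and adaptors, 3 of 7 junctional regulators, 4 of 6 other TEAD and VGLL factors, 1 of 9 other YAP target genes and 2 of 18 immediate early genes. The 1 YAP target gene was Ptpn14, which is also among the 3 junctional regulators.

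The gates were set by Sftpc, Hopx, Krt8 and Krt18, so they were checked on other markers. Summed over 11 ATII markers without Sftpc, the level was 60314 CPM in the ATII gate, 11095 in the ATI gate and 12235 in the keratin-high gate. Summed over 11 ATI markers without Hopx it was 2203, 12674 and 5148 CPM. With Sftpc the ATII sum was 215642 CPM in the ATII gate, 58592 in the ATI gate and 31484 in the keratin-high gate. The ATI gate thus still carried much surfactant RNA, and Sftpc alone stood at 47497 CPM there. Markers of other cell types were low: the 8 fibroblast markers summed to 31.6, 10.0 and 10.6 CPM in the ATII, ATI and keratin-high gates, against 51880 in 247 cells set apart by their collagen, Dcn and Mgp level. The 8 myeloid markers summed to 7.89, 7.04 and 9.10 CPM. The 7 pericyte and smooth muscle markers, with 2.90, 5.10 and 20.8 CPM, were highest in the keratin-high gate. Ctgf was also higher there than in the ATII gate, but it was highest in the ATI gate. The part of these markers in the results below was not tested. Lum and Tcf21 were at 0 in the ATI gate, and Pdgfra and Tcf21 in the keratin-high gate. In the keratin-high gate 6 of 7 mesothelial markers were at 0, and the list's 125 CPM came from Msln alone. Of the ATII gate's cells, 5 met the fibroblast and 4 the myeloid limit, against 0 in the ATI gate and 1 fibroblast cell in the keratin-high gate. The 21 immediate early genes, which dissociation of tissue can raise, summed to 16836, 16336 and 16251 CPM.

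Tead1 and Wwtr1 were higher in the ATI and keratin-high gates than in the ATII gate, and Yap1 differed little. Tead1 stood at 36.8 CPM in the ATII gate, 148 in the ATI gate and 90.7 in the keratin-high gate. That is 4.03 times the ATII level in the ATI gate (3.82 to 4.24) and 2.47 times in the keratin-high gate (2.36 to 2.58). Wwtr1 stood at 24.1, 110 and 71.0 CPM, or 4.54 times (4.27 to 4.82) and 2.94 times (2.79 to 3.10) the ATII level. Both genes were therefore highest in the ATI gate, with the keratin-high gate at 0.613 (Tead1) and 0.648 (Wwtr1) of that level. Yap1 stood at 35.8, 40.5 and 41.0 CPM, and its ratios to the ATII gate of 1.13 and 1.15 were under the shift of the median gene (below). The TEAD partner and the TAZ co-activator thus moved while Yap1 transcripts kept within 1.15-fold. Transcript levels do not show where the YAP protein lay.

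The inhibitors did not move alike. Lats2, the kinase that phosphorylates YAP and TAZ, stood at 10.9 CPM in the ATII gate, 30.8 in the ATI gate (2.83 times, 2.53 to 3.15) and 25.9 in the keratin-high gate (2.38 times, 2.19 to 2.59). Its 2 higher gates lay close together, at a ratio of 0.842 (0.746 to 0.950). Amotl2, an angiomotin that binds YAP, stood at 39.4, 78.2 and 41.8 CPM. It was 1.99 times the ATII level in the ATI gate (1.86 to 2.12) and 1.06 times in the keratin-high gate (0.999 to 1.13), an interval that includes no difference. Amotl2 was thus the member whose keratin-high level stood with the ATII gate while its ATI level stood apart.

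Of the secreted targets, Ctgf (CCN2) and Cyr61 (CCN1), matrix-associated proteins that bind integrins, had the largest changes among well-measured members. Ctgf stood at 4.45 CPM in the ATII gate, 149 in the ATI gate and 67.1 in the keratin-high gate. That is 33.6 times the ATII level in the ATI gate (30.8 to 36.6) and 15.1 times in the keratin-high gate (13.9 to 16.4). Of the 718 Ctgf UMIs in the ATII gate, 86 came from 1 cell, and without the cells that met a fibroblast, endothelial, myeloid or mesothelial limit the ATII level was 3.79 CPM. Cyr61 stood at 104, 662 and 487 CPM, or 6.36 times (6.20 to 6.53) and 4.68 times (4.58 to 4.78) the ATII level. Both genes had their highest level of the 3 gates in the ATI gate, although Cyr61 was higher in the keratin-high gate by 0.18 on the log2 scale in cells at or below the median immediate early level. Ctgf in the keratin-high gate was 0.450 of the ATI level (0.422 to 0.478). This last ratio was not past 2-fold when each cell counted equally, in cells thinned to 5000 UMIs, or in cells at or below the median immediate early level.

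Ankrd1, a cardiac ankyrin repeat protein that is a common readout of YAP activity, went another way. It had 2 UMIs in the 6975 ATII cells (0.012 CPM) and 7 UMIs in 6 of the 956 ATI cells (0.525 CPM), but 278 UMIs in 38 of the 1183 keratin-high cells (9.06 CPM). The ratio of the keratin-high to the ATI gate was 17.3 (8.28 to 43.4) and that to the ATII gate 732 (201 to 6075), which rests on those 2 UMIs. A single keratin-high cell held 137 of the 278 UMIs, or 49.3%, and the level without it was 4.61 CPM. Without that cell and the highest ATI cell the keratin-high and ATI levels were 4.61 and 0.375 CPM. Ankrd1 was thus found mainly in a small number of keratin-high cells, at a few UMIs in most of them.

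Axl, a receptor tyrosine kinase, and Crim1, a membrane protein that binds BMPs, were low in every epithelial gate. Axl had 49 UMIs in 17 ATII cells (0.303 CPM), 5 UMIs in 5 ATI cells (0.375 CPM) and 74 UMIs in 45 keratin-high cells (2.41 CPM). Without cells that met a limit of another cell type, the ATII gate kept 9 of its Axl UMIs and the keratin-high gate all 74. The keratin-high level was 6.44 times the ATI level (2.64 to 20.4) and 7.95 times the ATII level (5.47 to 11.7). Crim1 stood at 6.30, 4.35 and 8.35 CPM, so the ATI gate was at 0.690 of the ATII level (0.520 to 0.900) and the keratin-high gate at 1.33 times (1.15 to 1.52). The ATI gate held less Crim1 than the keratin-high gate by a ratio of 1.92 (1.44 to 2.60), just under 2-fold. Cells outside the epithelium held more of both genes: Axl reached 365 CPM in 78 cells set apart by myeloid markers and 96.6 CPM in the fibroblast-marker cells, and Crim1 reached 154 CPM in the latter.

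**Figure D1:**
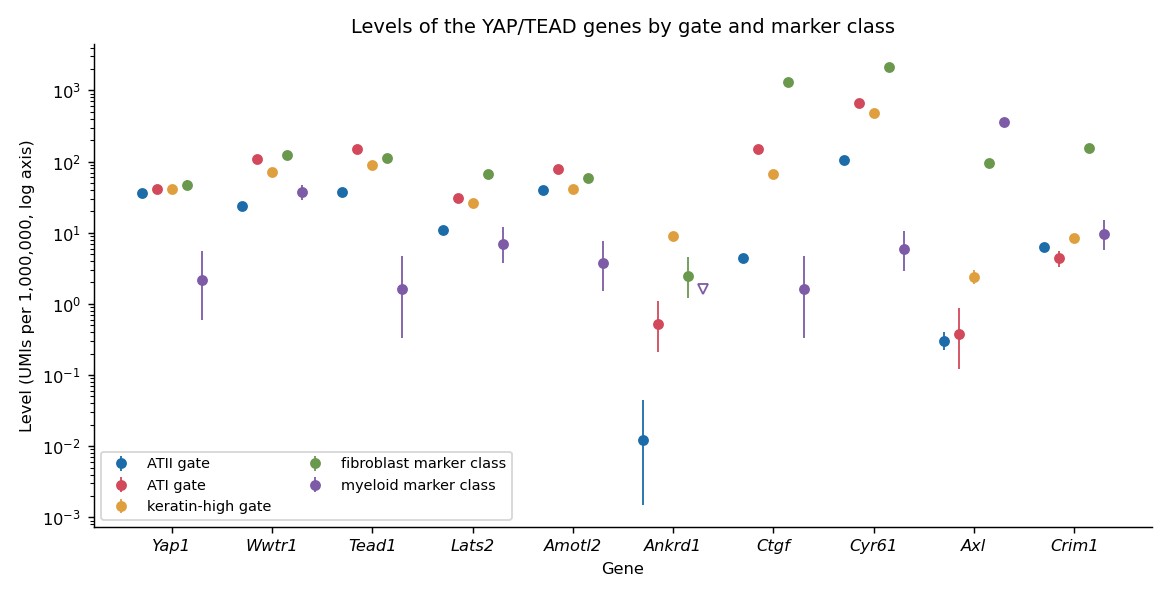
Level of each gene (UMIs per 1000000, log axis) in the 3 gates and in cells set apart by fibroblast or myeloid markers; points are summed levels, bars are exact Poisson 95% intervals, and the open triangle marks 3 counts for a gene with no UMI. Ctgf, Cyr61, Wwtr1 and Tead1 are higher in the ATI and keratin-high gates than in the ATII gate, Yap1 lies between 35.8 and 41.0 CPM in all 3 gates, and Ankrd1 is highest in the keratin-high gate.

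A gene was counted as higher or lower when it was past 2-fold, among genes of at least 1 CPM over both gates. The members were chosen with earlier results of these data known, so the counts describe them and test nothing. Of the 8 members with at least 1 CPM in each of the keratin-high and ATII gates, 5 were higher in the keratin-high gate (Wwtr1, Tead1, Lats2, Ctgf and Cyr61) and 0 lower, where 13.9% of all genes were higher and 6.96% lower. Ankrd1 was also past 2-fold but reached the minimum through the keratin-high gate alone, and Axl did not reach it over both gates. The median log2 ratio was 1.28 over those 8 members, 1.43 over all 10 and 0.33 over all genes. Relative to the median gene, 8.01% of genes were higher and 10.4% lower, and Wwtr1, Ctgf and Cyr61 stayed past 2-fold while Tead1 and Lats2 fell just under it. In the ATI gate 5 of 8 members were higher than in the ATII gate (Wwtr1, Tead1, Lats2, Ctgf and Cyr61) and 0 lower, where 11% of genes were higher and 8.39% lower. These 8 also had at least 1 CPM in each gate. The medians were 1.75 over the members and 0.33 over all genes. Relative to the median gene the background was 6.32% higher and 11.3% lower, and the same 5 members remained higher. Yap1 lay under the median gene in both comparisons, and Amotl2 did in the keratin-high gate. Between the keratin-high and ATI gates, 1 of the 8 members with at least 1 CPM in each was lower (Ctgf) and 0 higher, where 5.08% of genes were lower and 8.96% higher. Ankrd1 and Axl, past 2-fold higher, were over 1 CPM in the keratin-high gate alone.

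**Figure D2:**
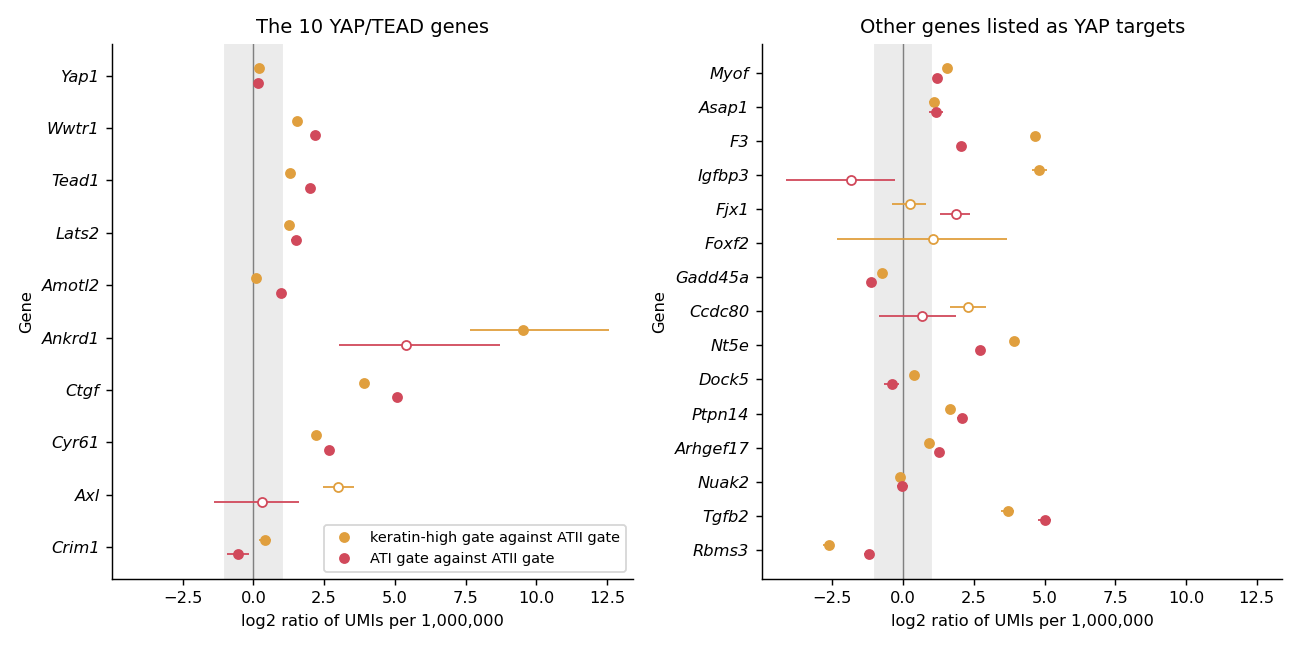
The log2 ratio of the keratin-high and the ATI gate to the ATII gate, for the 10 genes (left) and for 15 other genes listed as YAP targets (right); bars are exact 95% counting intervals, the grey band is within 2-fold, and open points are genes under 1 CPM over both gates. In the left panel the points beyond the band lie to the right, with Yap1, Amotl2 and Crim1 inside it, and in the right panel both directions occur.

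Across single cells the order of the gates was the same once depth was made equal. Each cell was thinned to 5000 UMIs, and 1099 shallower cells were left out. A Tead1 UMI was then found in 17.5% of ATII, 51.6% of ATI and 36.5% of keratin-high cells, against 50.9%, 73.2% and 76.1% before thinning. For Wwtr1 the thinned shares were 11.5%, 41.0% and 29.9%, and for Yap1 17.7%, 18.0% and 18.0%. For Cyr61 they were 20.2%, 61.7% and 53.6%, and for Ctgf 1.27%, 28.8% and 12.1%. In the myeloid-marker cells (median 24046.5 UMIs), taken as cells that should lack Tead1, Ctgf and Cyr61, 0 of 70 thinned cells had a Tead1, Ctgf or Cyr61 UMI, which allows a share of up to 4.29% (3 of 70; the Clopper-Pearson limit is 5.13%). Before thinning, 3.85% of those cells had a Tead1, 1.28% a Ctgf and 8.97% a Cyr61 UMI. The thinned Yap1 share there was 4.29% and the Wwtr1 share 18.6%, which is above the 11.5% of ATII cells, so these cells give no background for Wwtr1. With 70 cells the limit is wide. The ATI and keratin-high shares of Ctgf exceed it. The 1.27% of thinned ATII cells with a Ctgf UMI lie under it, and at full depth Ctgf stood at 4.45 CPM in the ATII gate and 1.61 CPM (0.332 to 4.70) in the myeloid-marker cells, there from 3 UMIs in 1 cell. Ankrd1 was found in 1.93% of thinned keratin-high cells (1.20% to 2.93%), and 0 UMIs were found in the myeloid-marker cells at full depth.

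**Figure D3:**
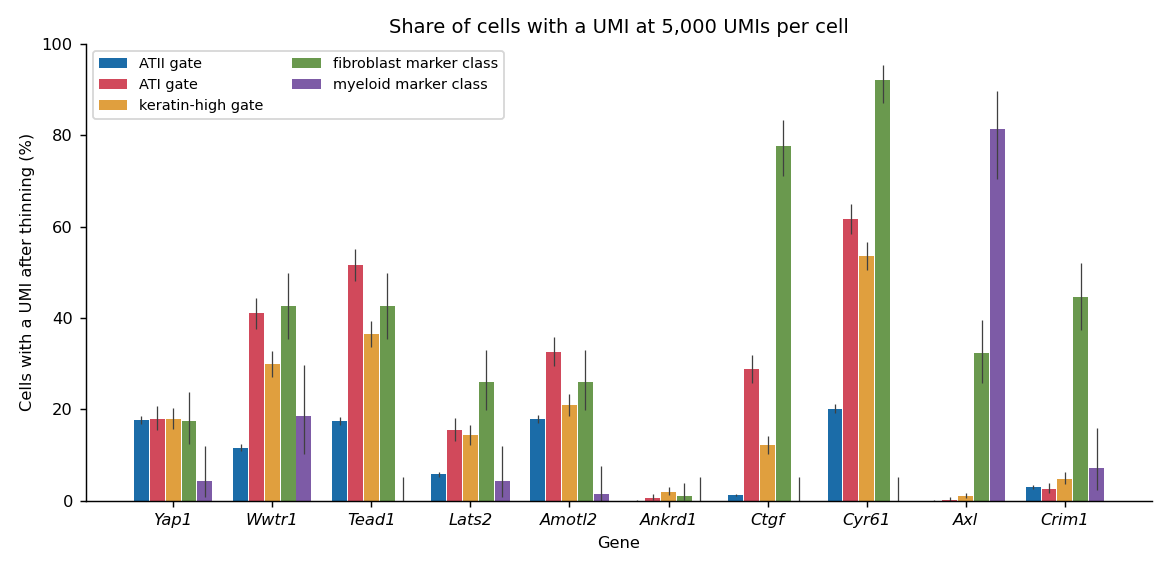
Share of cells with at least 1 UMI of each gene after thinning every cell to 5000 UMIs, with Clopper-Pearson 95% intervals; colors are the gates and marker classes. Yap1 is level across the gates at 17.7% to 18.0%, while Tead1, Wwtr1, Ctgf and Cyr61 rank ATI over keratin-high over ATII.

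Counted per cell, UMIs of at least 2 of the 7 inhibitor and target genes were found in 7.89% of thinned ATII cells, 44.9% of ATI cells and 29.6% of keratin-high cells. The fibroblast-marker cells reached 92.6% and the myeloid-marker cells 8.57%. Within the keratin-high gate the share was 22.0% in cells with Hopx under 2, 36.2% with Hopx from 2 to 15 and 43.5% with Hopx at 15 and more. Expression was uneven among cells: the tenth of ATI cells with most Ctgf held 69.3% of its UMIs, and the tenth of keratin-high cells 90.4%. For Tead1 the same shares were 32.7% and 32.6%.

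The rise with Hopx, a marker of ATI cells, was also seen among cells that kept high Sftpc. Cells with Sftpc of at least 500 and low keratin were split by Hopx into 6975 cells under 2 (the ATII gate), 693 from 2 to 5, 436 from 5 to 15 and 259 at 15 and more. Ctgf rose in these 4 bins from 4.45 to 23.5, 28.2 and 123 CPM. Cyr61 rose from 104 to 240, 346 and 481 CPM. Tead1 rose from 36.8 to 54.4, 69.9 and 112 CPM, and Wwtr1 from 24.1 to 42.7, 53.1 and 79.3 CPM. Lats2 went from 10.9 to 25.3 CPM and Amotl2 from 39.4 to 60.5 CPM between the first and last bins. Yap1 stayed between 35.8 and 40.3 CPM, and Crim1 was lowest in the last bin at 3.34 CPM. The last bin is part of the ATI gate as well.

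Within the keratin-high gate the same genes ranked with Hopx, and Ankrd1 ranked against it. With Hopx under 2 (620 cells), from 2 to 15 (436 cells) and at 15 and more (127 cells), Wwtr1 stood at 57.8, 83.6 and 118 CPM and Tead1 at 80.9, 97.7 and 138 CPM. Amotl2 stood at 33.2, 51.8 and 63.7 CPM, Ctgf at 58.6, 73.4 and 106 CPM and Cyr61 at 427, 563 and 602 CPM. Yap1 stood at 39.7, 42.0 and 46.8 CPM, Lats2 at 24.0, 28.5 and 29.5 CPM, and Crim1, without order, at 8.79, 7.40 and 9.36 CPM. Axl stood at 2.30, 2.81 and 1.40 CPM, the last from 3 UMIs. Ankrd1 stood at 13.3, 3.65 and 0.468 CPM, the last being 1 UMI. Between the first 2 bins Ankrd1 was the only member past 2-fold, at 3.65 times (2.59 to 5.26), where 3.52% of all genes were past 2-fold higher and 2.94% lower. Without the highest cell of each bin its levels were 5.68 and 2.81 CPM, and after thinning the log2 ratio was 0.93. Cycling cells were uneven as well, with 72 in the first bin, 7 in the second and 0 in the third, and without them the Ankrd1 log2 ratio was 2.06.

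**Figure D4:**
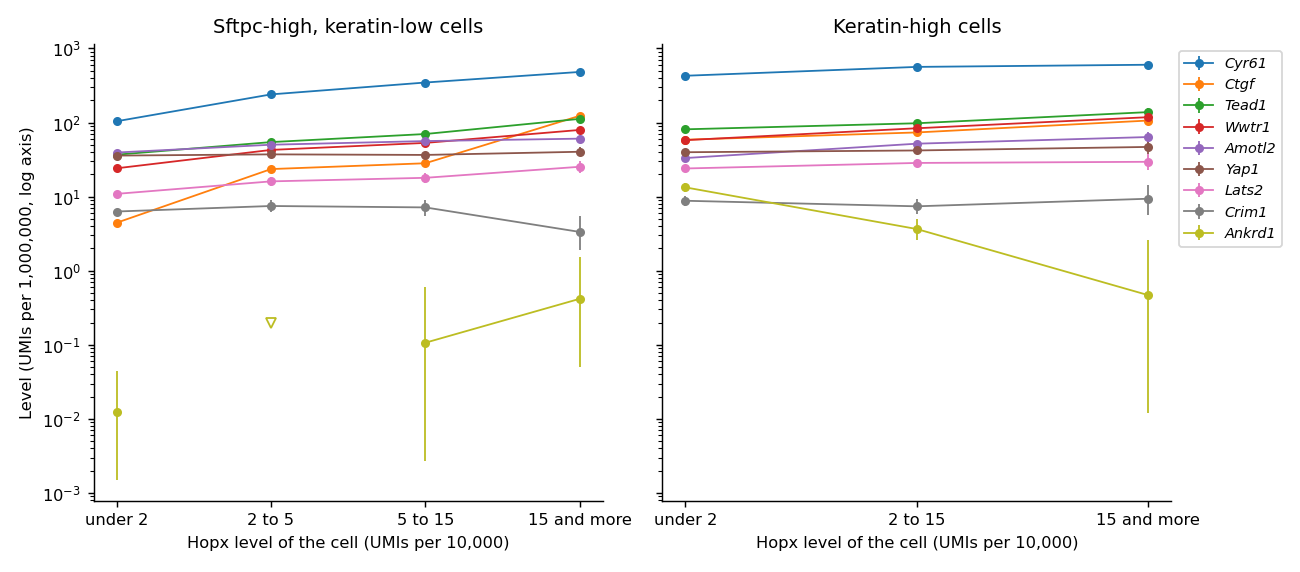
Level of 9 of the genes (UMIs per 1000000, log axis) against the Hopx level of the cell, in Sftpc-high cells with low keratin (left) and in keratin-high cells (right); bars are exact Poisson 95% intervals and the open triangle marks 3 counts where no UMI was found. Cyr61, Ctgf, Tead1 and Wwtr1 climb with Hopx in both panels, Yap1 stays between 35.8 and 46.8 CPM, and Ankrd1 drops from 13.3 to 0.468 CPM in the keratin-high cells.

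The targets differed in how they went with the amount of keratin. In keratin-high cells with Krt8 and Krt18 from 50 to 100 (849 cells), 100 to 200 (294 cells) and at 200 and more (40 cells), Cyr61 stood at 404, 624 and 1060 CPM and Tead1 at 87.2, 96.3 and 119 CPM. Ankrd1 stood at 3.39, 7.06 and 139 CPM, Ctgf at 56.3, 92.1 and 86.2 CPM, Axl at 1.27, 5.15 and 3.79 CPM and Crim1 at 8.09, 8.50 and 12.3 CPM. Without the cell of most UMIs in each bin, Cyr61 was at 391, 603 and 649 CPM and Ankrd1 went from 2.36 CPM in the first bin to 10.0 CPM in the last. Ctgf was then at 51.4, 82.9 and 25.1 CPM, Axl at 1.18, 3.85 and 0.983 CPM, Crim1 at 7.82, 8.06 and 7.66 CPM and Tead1 at 86.7, 95.5 and 105 CPM.

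Keratin-high cells with an Ankrd1 UMI also held more Ctgf and Cyr61. The 38 such cells had a median of 27594.5 UMIs and a median keratin level of 117 UMIs per 10000, against 76.2 in the 1145 others. Of the 38, 27 had Hopx under 2. Ctgf stood at 377 CPM in them and 53.9 CPM in the others, a ratio of 6.99 (6.30 to 7.76), and 27 of the 38 had a Ctgf UMI (71.1%, against 20.6%). At equal depth, Ctgf was found in 7 of 21 cells with a thinned Ankrd1 UMI (33.3%, 14.6% to 57.0%) and 11.7% of the others, Cyr61 in 17 of 21 (81.0%, 58.1% to 94.6%) and 53.0%, and Axl in 0 of 21 and 1.03%. Crim1 was found in 2 of 21 (9.52%, 1.17% to 30.4%) and 4.77%, so that the interval includes the share of the others. Cyr61 stood at 1760 and 433 CPM, Axl at 15.2 and 1.87 CPM and Crim1 at 21.6 and 7.78 CPM. Without the cell of most Ankrd1 UMIs, Cyr61 was 1450 CPM and Ctgf 394 CPM. The factors hardly differed, with Yap1 at 40.0 and 41.0 CPM, Wwtr1 at 77.7 and 70.7 and Tead1 at 103 and 90.2. Over all genes 4.49% were past 2-fold higher in the Ankrd1-positive cells and 9.6% lower. Nkx2-1, the lung lineage factor, stood at 168 CPM in them and 369 CPM in the others, and Epcam, an epithelial marker, at 1682 and 1041 CPM. The fibroblast list summed to 10.4 and 10.6 CPM, the pericyte and smooth muscle list to 36.8 and 20.2 CPM and the mesothelial list to 253 and 120 CPM, all of the latter from Msln. The part of these in the result was not tested.

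Split by Ctgf, the keratin-high gate gave a like picture for Cyr61. The 263 cells with a Ctgf UMI held 928 CPM of Cyr61 against 339 CPM in the other 920 (2.74 times, 2.65 to 2.83), 5.73 against 1.31 CPM of Axl (4.39 times, 2.70 to 7.23) and 32.7 against 1.17 CPM of Ankrd1. Of the 251 Ankrd1 UMIs in these 263 cells, 137 came from 1 cell. At equal depth, Cyr61 was found in 100 of 132 cells with a thinned Ctgf UMI (75.8%, 67.5% to 82.8%) against 50.5% of the others (47.3% to 53.7%) and Ankrd1 in 7 of 132 (5.30%, 2.16% to 10.6%) against 1.46% (0.801% to 2.44%). Axl was found in 2 of 132 (1.52%, 0.184% to 5.37%) against 0.939% (0.430% to 1.78%), where the intervals overlap. Over all genes 1.35% were past 2-fold higher and 2.76% lower. Amotl2 was 1.51 times (1.34 to 1.70), and Yap1 1.06 times (0.929 to 1.20). Wwtr1 stood at 84.5 against 66.5 CPM, Tead1 at 107 against 85.4 CPM and Lats2 at 30.7 against 24.3 CPM. Pericyte and smooth muscle markers summed to 46.3 against 12.3 CPM and fibroblast markers to 10.2 against 10.7 CPM. The part of the former in the result was not tested. In the ATI gate the 384 cells with a Ctgf UMI and the 572 without differed less, with Cyr61 at 797 and 543 CPM (1.47 times, 1.41 to 1.53) and no other member with at least 1 CPM past 2-fold either, where 0.905% of genes were higher and 1.64% lower. In the ATII gate Ctgf stood at 7.88 CPM in the 2486 cells with a Cyr61 UMI and 1.95 CPM in the others (4.05 times, 3.41 to 4.81), where 1.53% of genes were past 2-fold higher and 0.00868% lower. Of the 718 Ctgf UMIs of that gate, 86 came from 1 cell that also held 60 Cyr61 UMIs, and the ratio includes it.

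Other genes of the pathway were described from lists, which were also chosen with earlier results of these data known. Of 13 Hippo kinases and adaptors, which lie upstream of YAP, 0 were past 2-fold in the keratin-high against the ATII gate, with a median log2 ratio of 0.22 against 0.33 over all genes. In the ATI gate 2 of 13 were higher than in the ATII gate, near the 11% of all genes, and the median was 0.27 against 0.33: Wwc2 at 195 against 61.4 CPM and Wwc1 at 225 against 102 CPM, both scaffolds that activate LATS. Of 7 junctional regulators with at least 1 CPM, 2 were higher in the keratin-high gate (13.9% of all genes) and 4 in the ATI gate (11% of all genes), and 0 were lower. They included Ajuba, a LIM protein that binds LATS kinases, at 51.7 CPM in the ATI gate (10.3 times the ATII level, 9.32 to 11.5) and 43.5 CPM in the keratin-high gate (8.70 times, 7.97 to 9.51). Ptpn14, a phosphatase that binds YAP, stood at 7.96, 33.6 and 25.3 CPM. It is also on the list of other YAP targets below and counts among the higher genes of both lists. Frmd6, a FERM domain protein of the pathway, stood at 12.6, 33.0 and 13.0 CPM, like Amotl2 high in the ATI gate alone. Of the other TEAD and VGLL factors, 2 of 4 were higher in the keratin-high gate (13.9% of all genes) and 2 of 4 in the ATI gate (11%), with medians of 0.72 and 1.13 against 0.33: Tead2 at 1.90, 5.55 and 10.2 CPM and Tead4 at 4.87, 17.7 and 11.7 CPM.

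Of 15 other genes listed as YAP targets, 11 had at least 1 CPM in each of the keratin-high and ATII gates, of which 6 were higher and 1 lower in the keratin-high gate, against 13.9% and 6.96% of all genes, with a median log2 ratio of 1.09 against 0.33. F3, which encodes tissue factor, stood at 35.4 CPM in the ATII gate, 146 in the ATI gate and 902 in the keratin-high gate. Nt5e, the ectonucleotidase CD73, stood at 7.41, 49.4 and 111 CPM. Igfbp3 stood at 0.811 and 22.9 CPM in the ATII and keratin-high gates and had 3 UMIs in the ATI gate, so it is in none of these counts. Tgfb2, a TGF-beta ligand, was by contrast highest in the ATI gate, at 1.31, 42.1 and 17.0 CPM. Rbms3 was lower than in the ATII gate in both, at 44.2, 19.4 and 7.17 CPM. In the ATI gate 7 of 11 were higher than in the ATII gate and 2 lower, Rbms3 and Gadd45a, against 11% and 8.39% of all genes. Between the keratin-high and ATI gates 2 of the 11 with at least 1 CPM in each were higher and 2 lower, against 8.96% and 5.08% of all genes.

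Immediate early genes respond to dissociation of tissue, and Cyr61 and Ctgf are known to be induced with them. Of 21, 2 were higher in the keratin-high than in the ATII gate (Fosl1 at 29.0 against 2.43 CPM and Ier3 at 371 against 156 CPM) and 2 lower (Socs3 and Zfp36), near the 13.9% and 6.96% of all genes, with a median log2 ratio of 0.16 against 0.33. In the ATI gate 1 was higher (Dusp1) and 2 lower, against 11% and 8.39% of all genes, with a median of -0.26 against 0.33. Ctgf was also read in cells at or below the median level of this list. There it stood at 4.18 CPM in the ATII gate, 118 in the ATI gate and 60.9 in the keratin-high gate. Both ratios to the ATII gate were past 2-fold. Cyr61 was in those cells higher in the keratin-high than in the ATI gate, by 0.18 on the log2 scale. The part of dissociation in these levels was not tested.

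Cells were then compared by the state of the trap as read in RNA. Cells with a GFP and no Stk11 UMI numbered 1742 in the ATII gate, 242 in the ATI gate and 642 in the keratin-high gate. Cells with a Stk11 and no GFP UMI numbered 2353, 266 and 165, and 15, 2 and 3 cells had both. These are classes of cells by transcript. Which mice they came from is not known, so the trap, the mouse and the treatment cannot be told apart. In the keratin-high gate Ctgf stood at 35.4 CPM in 642 GFP-positive and 182 CPM in 165 Stk11-positive cells, a ratio of 0.195 (0.176 to 0.216), with a UMI in 8.68% and 22.1% of thinned cells. Axl stood at 1.06 and 7.97 CPM (21 and 37 UMIs, ratio 0.133, 0.074 to 0.233), and without the cell of most UMIs the Stk11-positive level was 5.65 CPM. After thinning, the Axl log2 ratio was -0.37 and no longer past 2-fold. Cyr61 did not follow Ctgf, at 464 and 479 CPM (0.968, 0.924 to 1.01). Yap1, Tead1, Lats2 and Amotl2 were within 1.11-fold and Wwtr1 was at 0.920. Of 10 members, 2 (Ctgf and Axl) were thus past 2-fold lower and 0 higher, where 3.51% of genes were lower and 5.44% higher.

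The Ctgf difference was present on both sides of a Hopx level of 2 and differed in size. With Hopx under 2, Ctgf stood at 43.0 CPM in 348 GFP-positive and 122 CPM in 78 Stk11-positive cells (0.353, 0.307 to 0.407). With Hopx at 2 and more it stood at 24.0 CPM in 294 and 262 CPM in 87 cells (0.091, 0.077 to 0.108). Over all genes 6.91% were past 2-fold higher and 4.98% lower in the first set, and 6.96% and 3.73% in the second. Cyr61 was higher in the GFP-positive cells in the first set (1.34, 1.25 to 1.45) and lower in the second (0.743, 0.699 to 0.790). Ankrd1 had 178 UMIs in GFP-positive and 46 in Stk11-positive cells with Hopx under 2 (ratio of levels 0.868, 0.624 to 1.23), and 2 and 23 UMIs with Hopx at 2 and more. Of the 178 UMIs, 137 came from 1 cell, and without the highest cell of each class Ankrd1 stood at 3.46 and 9.10 CPM with Hopx under 2. Over the whole gate Ankrd1 stood at 9.06 and 14.9 CPM, and without the highest cell of each class at 2.17 and 10.2 CPM. Its log2 ratio of -0.71 was negative in 9 of 10 alternatives other than the Hopx split, from -4.41 to 0.61, the last in cells at or below the median immediate early level. Over all cells without gates, a different set of cells, it was 1.12. Whether the difference depends on Hopx was not tested.

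In the ATI gate the Ctgf difference had the same direction, at 69.0 CPM in GFP-positive and 197 CPM in Stk11-positive cells (0.350, 0.306 to 0.399), with a UMI in 18.5% and 34.6% of thinned cells. Cyr61 stood at 511 and 660 CPM (0.774, 0.732 to 0.818). Of the 8 members with at least 1 CPM, 1 was past 2-fold lower and 0 higher, where 3.2% of genes were lower and 4.55% higher (relative to the median gene, whose log2 ratio was 0.11, 4.11% and 3.48%). In the ATII gate no member of over 1 CPM was past 2-fold, where 3.89% of genes were higher and 1.15% lower (2.87% and 1.7% relative to the median gene), and Ctgf stood at 5.41 and 4.31 CPM (a log2 ratio of 0.33, 0.08 to 0.58). Of the 270 Ctgf UMIs in Stk11-positive ATII cells 86 came from 1 cell, and the level without it was 2.94 CPM. Without the cells that met a limit of another cell type, Ctgf was 5.39 and 2.64 CPM, just past 2-fold higher in GFP-positive cells. The fibroblast list summed to 22.5 CPM in GFP-positive and 58.0 CPM in Stk11-positive ATII cells. Cyr61 was higher in GFP-positive ATII cells, at 139 and 86.6 CPM (1.61, 1.55 to 1.67), and so was Crim1, at 8.66 and 4.47 CPM (1.94, 1.66 to 2.26). Tead1 (1.22) and Wwtr1 (1.23) differed little from the median gene, whose log2 ratio was 0.18. Differences between the gates in these ratios were not tested. Beside these ratios, the immediate early list in GFP-positive and Stk11-positive cells summed to 15861 and 16993 CPM in the keratin-high gate and 13729 and 16522 CPM in the ATI gate. In cells at or below the median of that list, Ctgf stood at 44.8 and 117 CPM in the keratin-high gate and at 69.1 and 144 CPM in the ATI gate. The fibroblast list summed to 11.1 and 5.60 CPM in the keratin-high gate and 10.5 and 7.02 CPM in the ATI gate. Msln, the only mesothelial marker found there, stood at 111 and 212 CPM in the keratin-high gate, the pericyte and smooth muscle list at 27.8 and 6.68 CPM, and the cycling list at 92.4 and 187 CPM. By cells the order was the reverse, since 61 of 642 GFP-positive and 4 of 165 Stk11-positive keratin-high cells had at least 3 UMIs on the cycling list. The part of these in the result was not tested.

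**Figure D5:**
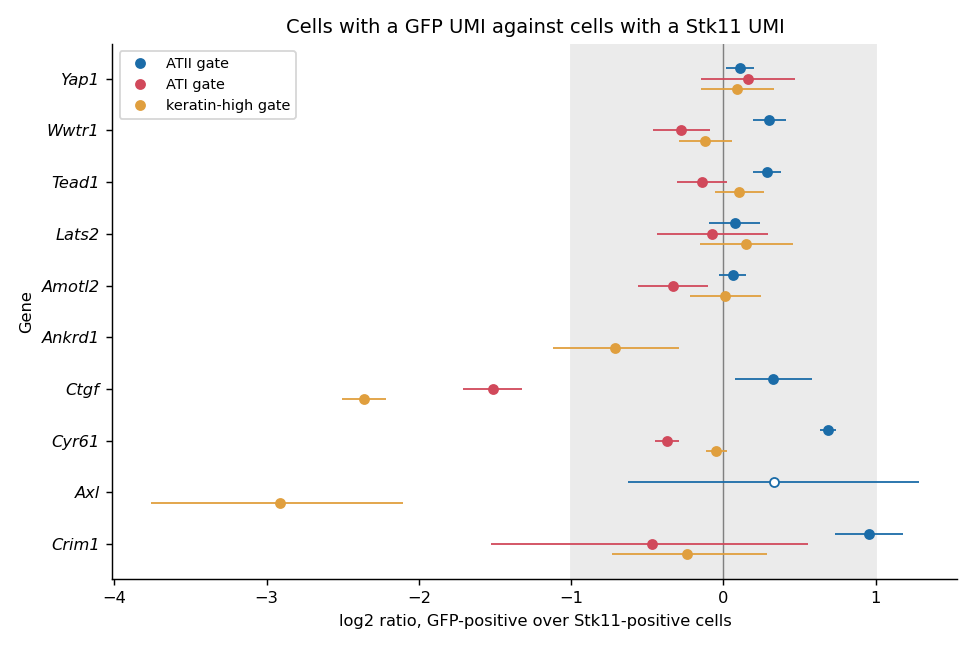
The log2 ratio of GFP-positive to Stk11-positive cells for each gene in the 3 gates; bars are exact 95% counting intervals, the grey band is within 2-fold, and the open point is a gene under 1 CPM over both classes. Ctgf lies left of the band in the ATI and keratin-high gates and inside it in the ATII gate, Axl lies left of it in the keratin-high gate, and the factors lie inside it in all 3.

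Over 9 disjoint classes of cells (the ATII and ATI gates, keratin-high cells in 3 Hopx bins, cells of no gate, and fibroblast-, endothelial- and myeloid-marker cells) the profiles of the members were compared. As a description over classes that share libraries and differ in depth, Pearson's r of log2(CPM + 1) was 0.94 between Tead1 and Cyr61, 0.92 between Ctgf and Cyr61, 0.95 between Yap1 and Amotl2, 0.92 between Tead1 and Amotl2, 0.89 between Lats2 and Ctgf, and 0.83 between Tead1 and Yap1. Only some of the pairs are printed here. Wwtr1 was at 0.36 with Tead1, 0.49 with Amotl2, 0.51 with Yap1 and 0.87 with Lats2. Axl ranged from -0.71 with Yap1 to 0.43 with Crim1, and Ankrd1 had no value over 0.48 with another member. Among 11108 other genes the profile most like Tead1 was Farp1 (0.994), most like Ctgf D3Ertd254e (0.993), Fhl1 (0.982) and Nbl1 (0.977), and most like Ankrd1 Tomm40 (0.950). With 9 classes many genes reach such values: 63 genes passed 0.95 for Tead1 and 20 for Ctgf, and 0 for Ankrd1.

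On GRCm38, GENCODE M21 places Yap1 at 9:7931999-8004596, Wwtr1 at 3:57455649-57575910, Tead1 at 7:112679318-112906807, Lats2 at 14:57689662-57758388 and Amotl2 at 9:102716672-102733418. Ankrd1 lies at 19:36111961-36120099, Ctgf (Ccn2) at 10:24595442-24598683, Cyr61 (Ccn1) at 3:145646976-145649981, Axl at 7:25757273-25788705 and Crim1 at 17:78200248-78376592. Tead1, Lats2 and Crim1 each overlap another annotated gene on the same strand (Gm44462, Gm49361 and Gm25069), so reads there could be split or dropped. Genes on the opposite strand overlap Yap1, Wwtr1, Tead1, Lats2, Ctgf and Crim1, which the strand of the 3′ kit keeps apart.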

How the data were processed

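Sorted tumor cells of 6 mice were profiled with the 10x 3′ kit. The authors deposited 1 pooled matrix of raw UMI counts, made with Cell Ranger 3.0.2 (per the file headers) against mm10 (per the submitters' processing notes) with GFP and TdTomato added; the annotation release is not given in the sources used here. The 10 genes and all lists were chosen with earlier results of these data known.

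Cells with at least 500 genes and at most 20% mitochondrial UMIs were kept (12183 of 16017, 257163522 UMIs) and gated by UMIs per 10000. Counts were summed per gate and given as CPM with exact Poisson 95% intervals, ratios with exact conditional binomial and shares with Clopper-Pearson intervals. With 1 sample no p-value was computed. A gene was called past 2-fold among genes of at least 1 CPM over both groups. A count of 0 was read as at most 3 counts. Marker classes were set by UMIs per 10000: Col1a1, Col1a2, Col3a1, Dcn and Mgp together at least 20 (fibroblast), Pecam1, Cdh5 and Cldn5 at least 10 (endothelial), Ptprc, Tyrobp and Fcer1g at least 10 (myeloid), and Upk3b, Wt1 and Lrrn4 at least 5 (mesothelial). Cycling cells had at least 3 UMIs on 10 cycling genes. For shares, cells were thinned to 5000 UMIs (seed 1). Doublets were kept; leaving out the 6% highest Scrublet scores (731 cells) was an alternative.

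The 10 members are named in every comparison, and from each list at most 5 genes per direction past 2-fold with at least 5 CPM. The 3 genes most like a member were sought among genes of at least 10 CPM in some class, and only those for 3 members are printed, a choice made after the values were seen. Nkx2-1, Epcam and the Frmd6 level in the keratin-high gate were singled out after their values were seen. Other gates, limits, denominators and weightings were tried as alternatives. Leaving out the cell with most UMIs, thinning, splitting or restricting the GFP and Stk11 classes, and the alternatives within the keratin-high gate were chosen after seeing the data. The ratio and interval code was tested on simulated data. The software was scanpy 1.11.5 (Scrublet), scipy 1.17.1 (intervals), matplotlib 3.10.9 (plots), pandas 2.3.3 and numpy 2.4.6 under Python 3.11.15.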

Additional observations from a re-analysis of the deposited data

How the results depend on the processing

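No paired analysis was possible because the pooled matrix gives no mouse for a cell, and the labels give no replicate numbers (those used here only name samples in accession order). The counts here take every member with at least 1 CPM over both groups, so that Ankrd1 (6 higher with it against the ATII gate) and Axl enter through the gate where they are high. The count of members past 2-fold kept within 1.5 times of its value under every alternative run for the keratin-high against the ATII gate (4 to 6 higher, 0 lower) and the ATI against the ATII gate (5 to 6 higher, 0 lower). Between the keratin-high and ATI gates the lower count of 1 became 0 when each cell counted equally, when cells were thinned, or in cells at or below the median immediate early level, 2 with stricter gates or without the 10 most abundant genes, and 4 at 1.5-fold; the higher count of 2 became 0 with a minimum of 10 CPM (7 members tested). For GFP-positive against Stk11-positive cells, the ATII higher count of 0 became 1 when cells counted equally, without marker classes, without the highest Scrublet scores or after thinning, and 2 at 1.5-fold. Over all cells without gates the higher count was 1 and the lower 2, against 0 and 0 in the ATII gate, 0 and 1 in the ATI gate and 0 and 2 in the keratin-high gate. After thinning, the split of keratin-high cells at Hopx 2 gave 0 higher and 1 lower (Axl, at -1.67 on the log2 scale), from 1 and 0. The cause of these changes was not tested. Under these alternatives 610 single-gene ratios stayed within the counting interval of the reported ratio, 207 lay outside it, and 0 of the ratios past 2-fold changed sign. The 610 include the 1.5-fold and 10 CPM settings, which change only the limits and leave every ratio as it was. Leaving aside the Hopx split and the run over all cells without gates, the Ctgf ratio of GFP-positive to Stk11-positive keratin-high cells ran from -2.78 to -1.38 on the log2 scale. Depth limits Ankrd1 and Axl most, with 2 and 49 UMIs in the ATII gate. Nothing here measures the spread between mice.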
